A study of Homo sapiens with 6 samples.

Results

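The segment examined here is the stretch of chromosome 22 between 17 and 23.3 Mb (build GRCh38), which ends inside BCR and is known to be amplified in K562. Its members are the called transcription start peaks whose deposited centre lies between these positions. They number 155 of the 24782 peaks listed for PRO-seq 1M, 216 of 38397 for qPRO-seq 1M and 91 of 15606 for qPRO-seq 250k. Position alone defines them, though the segment was picked with earlier results of these data known. They were compared with the peaks of the same chromosome beyond 23.3 Mb, of which the lists held 397, 574 and 224.

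The material was K562, a human leukaemia cell line that received no treatment, and every group shared this genotype. PRO-seq 1M followed an established run-on protocol with 3 affinity purifications on 1M permeabilized cells per library. qPRO-seq 1M followed a faster protocol with 1 purification on the same number of cells, and qPRO-seq 250k followed the faster protocol on 250k cells. Libraries had 11 PCR cycles in both 1M groups and 14 in the 250k group. Each group had 2 biological replicates separated by cell passages, but the replicates share 1 list, so no spread between replicates could be measured and no p-value is given.

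K562 carries the Philadelphia translocation, which joins the start of BCR on chromosome 22 to ABL1 on chromosome 9, and the fused gene encodes a constantly active tyrosine kinase. The chromosome 22 sequence on the centromeric side of the break, kept with the fusion gene, is known to be present in extra copies in this line. The same stretch holds the interval lost in 22q11.2 deletion syndrome and the immunoglobulin lambda light chain locus, which rearranges in B cells. The lists give peak positions and scores and no read depth, so copy number was not measured here. PRO-seq maps engaged RNA polymerases by labelling nascent RNA, and dREG is a classifier that marks promoters and enhancers from run-on signal on both strands.

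The labels call K562 lymphoblastoid. Of 8 erythroid marker genes, 7 had a start peak in PRO-seq 1M, 8 in qPRO-seq 1M and 7 in qPRO-seq 250k, where 52.9%, 54.5% and 44.0% of all protein-coding genes had one. Of 8 B lymphoid markers, 2, 2 and 1 had one. EBF1 had it in both 1M lists, and PAX5 and MS4A1 were without one in every list. A start peak means a peak within 500 bp of any annotated transcript start of the gene. All libraries were bulk cultures, so fewer cells using a start and less nascent RNA per cell cannot be told apart.

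Promoters are printed for the genes on which the account of the segment turns: BCR at the fusion point, CRKL and DGCR8 in the gene-rich middle, BCL2L13 with a top-scored peak, PRAME inside the light chain locus, and VPREB1 as a neighbour of PRAME without a peak. The sequences come from RefSeq (GRCh38.p14) and are the 250 bases before a listed start, 5′ to 3′ on the gene's strand. Capitals mark matches to 6 motifs on either strand. The GC box, bound by SP and KLF factors, was searched as GGGCGG. The core of sites for ETS factors was searched as CCGGAA, and that of GATA factors, the family of the erythroid regulator GATA1, as AGATAA. For AP-1 the letters were TGACTCA, and for the TATA box, which places the start of transcription, they were TATAAA. The sixth was the palindromic site of NRF1. Matches of different motifs may overlap and each was counted. The windows are chr22:23180259-23180508 (plus strand) for BCR, chr22:20917157-20917406 (plus) for CRKL, chr22:20079991-20080240 (plus) for DGCR8, chr22:17638507-17638756 (plus) for BCL2L13, chr22:22559266-22559515 (minus) for PRAME and chr22:22244536-22244785 (plus) for VPREB1.
BCR: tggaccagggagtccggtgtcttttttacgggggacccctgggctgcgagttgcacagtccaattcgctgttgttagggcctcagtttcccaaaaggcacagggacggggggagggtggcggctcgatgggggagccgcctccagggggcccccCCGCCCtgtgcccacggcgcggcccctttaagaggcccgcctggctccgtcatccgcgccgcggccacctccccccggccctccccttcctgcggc
CRKL: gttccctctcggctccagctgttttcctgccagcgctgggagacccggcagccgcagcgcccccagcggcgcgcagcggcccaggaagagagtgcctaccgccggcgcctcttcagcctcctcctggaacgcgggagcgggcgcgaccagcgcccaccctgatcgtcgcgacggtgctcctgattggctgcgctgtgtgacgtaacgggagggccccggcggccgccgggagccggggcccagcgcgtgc
DGCR8: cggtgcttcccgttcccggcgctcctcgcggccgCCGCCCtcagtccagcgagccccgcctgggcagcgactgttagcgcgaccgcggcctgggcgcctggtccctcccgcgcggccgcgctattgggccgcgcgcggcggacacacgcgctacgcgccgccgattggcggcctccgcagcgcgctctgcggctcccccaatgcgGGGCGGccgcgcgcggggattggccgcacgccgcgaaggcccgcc
BCL2L13: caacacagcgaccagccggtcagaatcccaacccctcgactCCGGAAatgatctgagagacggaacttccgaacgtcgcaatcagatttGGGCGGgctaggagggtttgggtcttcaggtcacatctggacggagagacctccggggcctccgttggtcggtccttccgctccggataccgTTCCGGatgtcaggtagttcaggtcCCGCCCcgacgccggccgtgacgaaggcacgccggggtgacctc
PRAME: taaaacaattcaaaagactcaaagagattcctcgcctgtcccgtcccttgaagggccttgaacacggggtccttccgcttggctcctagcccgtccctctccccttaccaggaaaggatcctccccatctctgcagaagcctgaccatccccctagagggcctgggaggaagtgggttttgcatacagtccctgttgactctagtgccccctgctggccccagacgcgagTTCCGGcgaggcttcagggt
VPREB1: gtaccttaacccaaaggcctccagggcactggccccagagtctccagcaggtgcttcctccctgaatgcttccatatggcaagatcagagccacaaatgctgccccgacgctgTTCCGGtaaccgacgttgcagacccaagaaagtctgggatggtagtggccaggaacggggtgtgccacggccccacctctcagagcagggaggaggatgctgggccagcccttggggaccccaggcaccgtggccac

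A peak of every list covered the BCR, CRKL, DGCR8, BCL2L13 and PRAME windows, and no list had a peak over the VPREB1 window. The BCR window held 1 GC box, the DGCR8 window 2, and the CRKL window none of the 6 motifs. BCL2L13 held 2 GC boxes and 2 ETS cores, and the PRAME and VPREB1 windows each held 1 ETS core. Over the 136 RefSeq promoter windows of the segment, the 44 covered in all 3 lists had a median GC share of 70% and a CpG observed over expected ratio of 0.888. The 79 windows covered in no list had medians of 58% and 0.267, and 13 windows were covered in 1 or 2 lists. A GC box was present in 81.8% of the windows covered in all lists, 29.1% of those covered in none and 42.7% of all 34959 promoters in the table. Beyond the segment, the 155 windows covered in all lists had a median GC share of 67.6% and a GC box in 76.1%. ETS cores occurred in 27.3% of the segment's windows covered in all lists and 13.9% of those covered in none, with 14.5% over the table. GATA motifs occurred in 4.55% and 8.86% of the same windows, against 9.18% over the table, and AP-1, NRF1 and TATA motifs in 4.17%, 1.03% and 10.7% of all promoters. These are descriptions of sequence and identify no bound factor.

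Peaks were packed more densely per protein-coding gene in the segment than on the rest of the chromosome. With 89 such genes, the segment had 1.74 peaks per gene in PRO-seq 1M, 2.43 in qPRO-seq 1M and 1.02 in qPRO-seq 250k. Beyond it, with 349 genes, the lists had 1.14, 1.64 and 0.642 peaks per gene. In PRO-seq 1M the segment's density was 1.53 times that of the rest (exact 95% interval 1.26 to 1.85). The ratio for qPRO-seq 1M was 1.48 (1.26 to 1.73), and that for qPRO-seq 250k was 1.59 (1.23 to 2.04). These intervals, like all intervals below, cover counting error only, and neighbouring peaks are not independent.

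The denser packing was seen near starts and away from them. Peaks within 500 bp of a transcript start numbered 1.27, 1.45 and 0.798 per gene in the segment, in the same order of lists, against 0.825, 0.983 and 0.524 beyond. Peaks farther from a start were 1.51 (1.03 to 2.18), 1.48 (1.14 to 1.90) and 1.91 (1.06 to 3.34) times as frequent. The excess depended on the denominator and on how split peaks were counted. Per Mb the segment held more peaks as well, 24.6, 34.3 and 14.4 against 14.4, 20.9 and 8.15 beyond. Per annotated gene of any type the ratio fell below 1, to 0.883 (0.728 to 1.07), 0.851 (0.724 to 0.997) and 0.918 (0.712 to 1.18). The segment's 391 annotated genes include 145 pseudogenes and 48 immunoglobulin segments that are not pseudogenes, and the 884 beyond it include 145 pseudogenes. With peaks within 500 bp of each other merged, the ratios were 1.24 (0.971 to 1.58), 1.20 (0.975 to 1.48) and 1.41 (1.04 to 1.88). Against the genes of chromosomes 1 to 21 and X, they were 1.40 (1.19 to 1.64), 1.26 (1.10 to 1.44) and 1.30 (1.05 to 1.60).

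**Figure D1:**
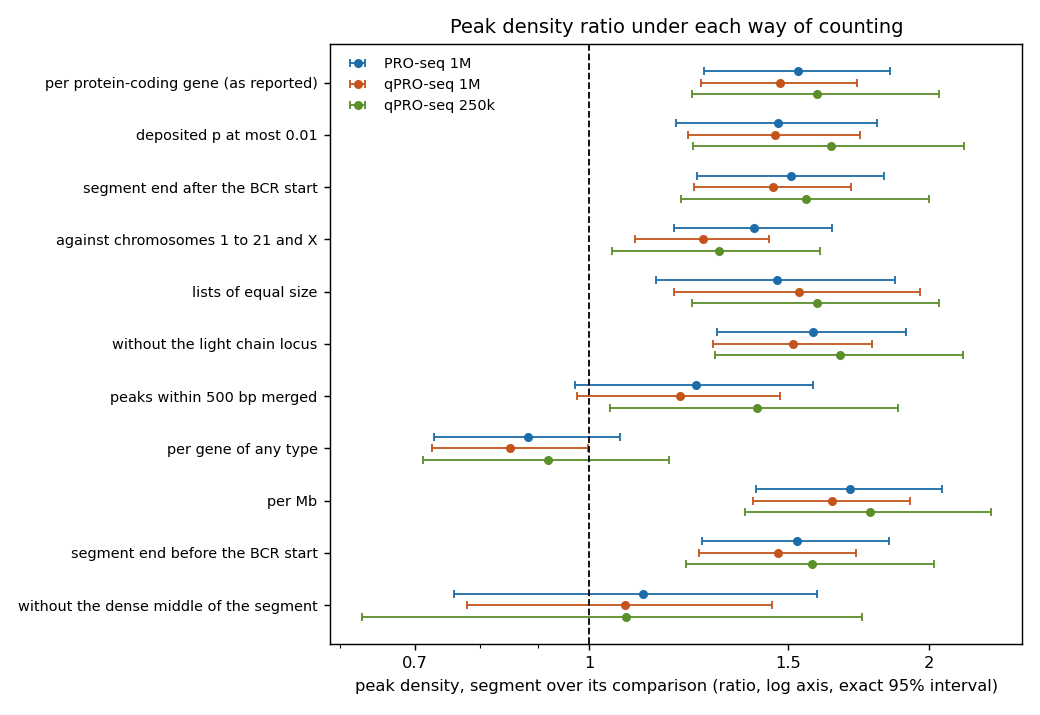
Ratio (log axis) of peak density in the segment to that of chromosome 22 beyond it, or of chromosomes 1 to 21 and X where named, for each list and each way of counting, with exact 95% intervals of counting error as bars. Ratios per protein-coding gene lie at 1.48 to 1.59 as reported (top line), at 1.26 to 1.40 against the other chromosomes, and at 1.08 to 1.12 without the middle of the segment, and those per gene of any type lie below 1.

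Neighbouring peaks were also more often split in the segment than beyond it in both 1M lists. In PRO-seq 1M, 54.8% of segment peaks lay 20 bp from the next, against 35.0% beyond, a difference of 19.8 percentage points (Newcombe 95% interval 10.6 to 28.7). In qPRO-seq 1M the shares were 54.2% and 38.2%, a difference of 16.0 points (8.22 to 23.6). In qPRO-seq 250k they were 29.7% and 22.8%, and the interval of the difference, 6.90 points (-3.38 to 18.1), included 0. Over all chromosomes the shares were 40.6%, 41.9% and 26.4%, in the same order of lists. The rest of chromosome 22 lay below these shares in every list, and the segment above them. A merged group of segment peaks held a mean of 1.70, 1.76 and 1.40 peaks, against 1.38, 1.43 and 1.24 beyond.

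The density was not even along the segment. The stretch from 18.8 to 22.4 Mb, a span chosen after its counts were seen, held 63 genes and 122, 170 and 73 peaks, or 1.94, 2.70 and 1.16 per gene. The remaining 26 genes had 33, 46 and 18 peaks, or 1.27, 1.77 and 0.692 per gene. Without that middle, the ratio to the rest of the chromosome was 1.12 (0.757 to 1.59), 1.08 (0.779 to 1.45) and 1.08 (0.628 to 1.74). Among the segment's bins of 0.9 Mb, the one that ends at 22.4 Mb, with PPIL2 and UBE2L3 among its 11 genes, had the most peaks per gene: 3.18, 4.36 and 2.0. The bin from 19.7 to 20.6 Mb, with 23 genes of the deletion interval and its telomeric side, had the most peaks: 42, 58 and 24. The last bin before the limit had 0.778, 1.11 and 0.444 peaks per gene, and the first bin beyond it had 0.35, 0.45 and 0.25.

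**Figure D2:**
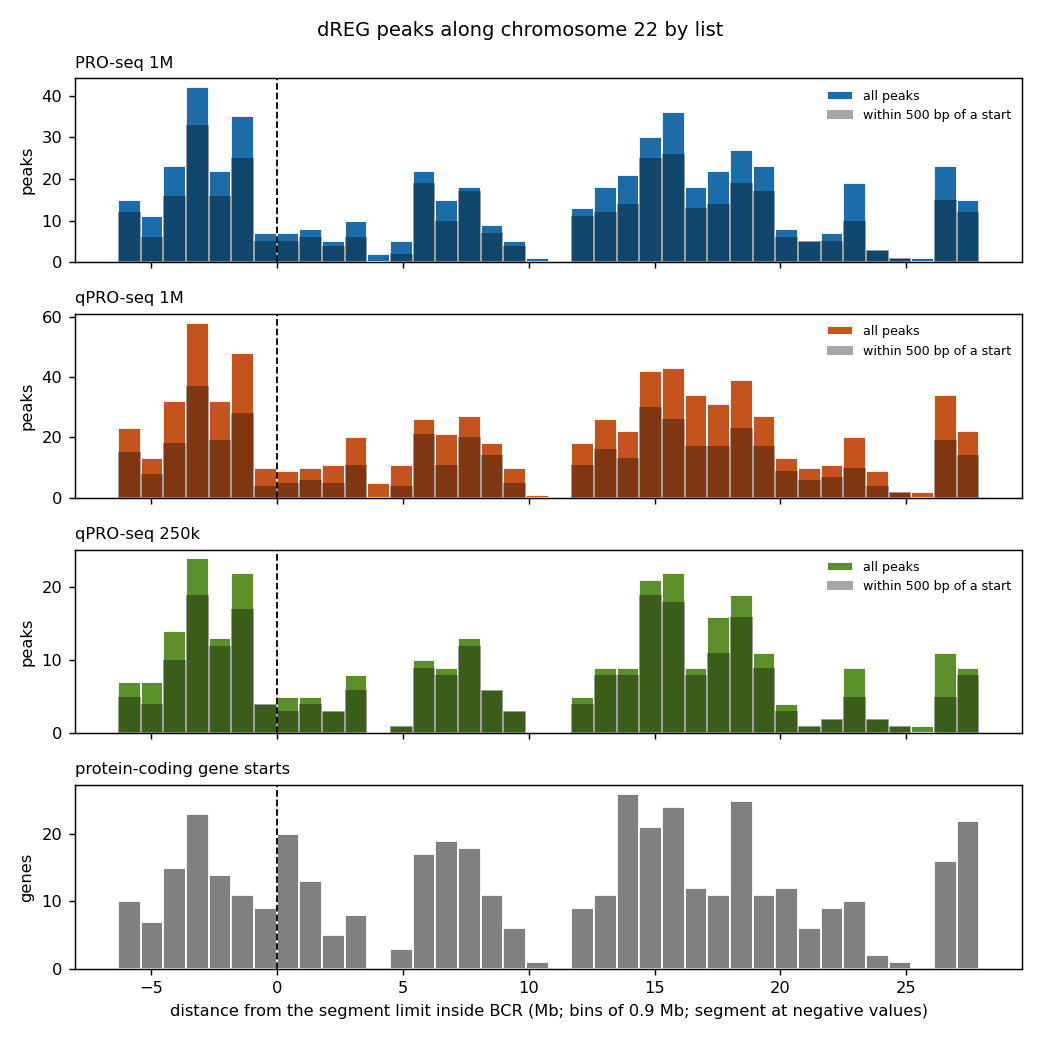
Number of peaks in bins of 0.9 Mb along chromosome 22, by distance in Mb from the limit inside BCR (dashed line; the segment is at negative distances), for each of the 3 lists with peaks near a start shaded, and the number of protein-coding gene starts in the lowest panel. The tallest bin of each list lies in the segment, with 42, 58 and 24 peaks, and the bins on both sides of the limit hold at most 10.

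Segment peaks reached the median score of their list about as often as those beyond, within counting error. Top scores were more frequent in the segment than beyond it in 2 of the lists, not detectably so in qPRO-seq 1M. The score is the value deposited with each peak and was used only to rank peaks within a list. In PRO-seq 1M, 49.7% of segment peaks were at or above the list's median score, against 52.6% beyond, a difference of -2.97 points (-12.1 to 6.24). In qPRO-seq 1M the shares were 50.9% and 49.1%, a difference of 1.80 points (-5.98 to 9.54). In qPRO-seq 250k they were 56.0% and 47.3%, a difference of 8.72 points (-3.42 to 20.4). Among peaks with a deposited p-value of at most 0.01, this difference became 13.4 points (0.0286 to 26.0). That filter keeps some low-scored peaks, as the deposited p-value was exactly 0 for 15 of the 91 segment peaks, 1 of them with a score of 0.339. In the top 10% of its list by score, PRO-seq 1M had 17 of 155 segment peaks against 23 of 397 beyond, a difference of 5.17 points (0.315 to 11.4). For qPRO-seq 250k these were 17 of 91 and 7 of 224, a difference of 15.6 points (8.16 to 24.9). For qPRO-seq 1M they were 23 of 216 and 47 of 574, and the interval of the difference, 2.46 points (-1.82 to 7.67), included 0. By definition about 10% of a whole list lies in its top 10%. The segment's share was close to this in both 1M lists and above it in qPRO-seq 250k. The share beyond the segment was below it in every list. Median scores in the segment were 0.598, 0.558 and 0.615, with a range from 0.275 to 1.30 over the lists, and beyond it they were 0.634, 0.538 and 0.552. Median peak widths in the segment were 450, 420 and 460 bp.

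Recurrence among the lists differed from that of the rest of the chromosome by no more than counting error in 5 of the 6 ordered pairs of lists. Of PRO-seq 1M segment peaks, 90.3% were overlapped by at least 1 bp by qPRO-seq 1M (91.7% beyond, 90.6% over all chromosomes) and 58.1% by qPRO-seq 250k (55.9% and 60.2%). Of qPRO-seq 1M segment peaks, 68.1% were overlapped by PRO-seq 1M (67.4% and 63.3%) and 48.1% by qPRO-seq 250k (42.5% and 44.1%). The interval of the last difference was -2.10 to 13.4 points. Of qPRO-seq 250k segment peaks, 96.7% were overlapped by qPRO-seq 1M (99.6% and 96.6%). The pair that differed was qPRO-seq 250k overlapped by PRO-seq 1M, with 90.1% in the segment and 96.0% beyond, a difference of -5.87 points (-13.9 to -0.129). The share over all chromosomes was 91.2%, and the segment lay nearer to it than the rest of chromosome 22 did. With an overlap of at least 50% of both peaks, this difference turned to 3.57 points (-6.15 to 11.6), and with centres within 100 bp it was -1.65 points (-12.4 to 7.82). Against chromosomes 1 to 21 and X it was -1.05 points (-8.91 to 3.58). With lists of equal size it was -13.2 points (-23.7 to -4.00). Among peaks with a deposited p-value of at most 0.01 it was -7.23 points (-16.3 to -0.928). Where 1 peak met 1 peak, the median distance of the centres was 30 bp between both 1M lists (78 pairs), 40 bp between PRO-seq 1M and qPRO-seq 250k (50 pairs) and 30 bp between both qPRO-seq lists (56 pairs).

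**Figure D3:**
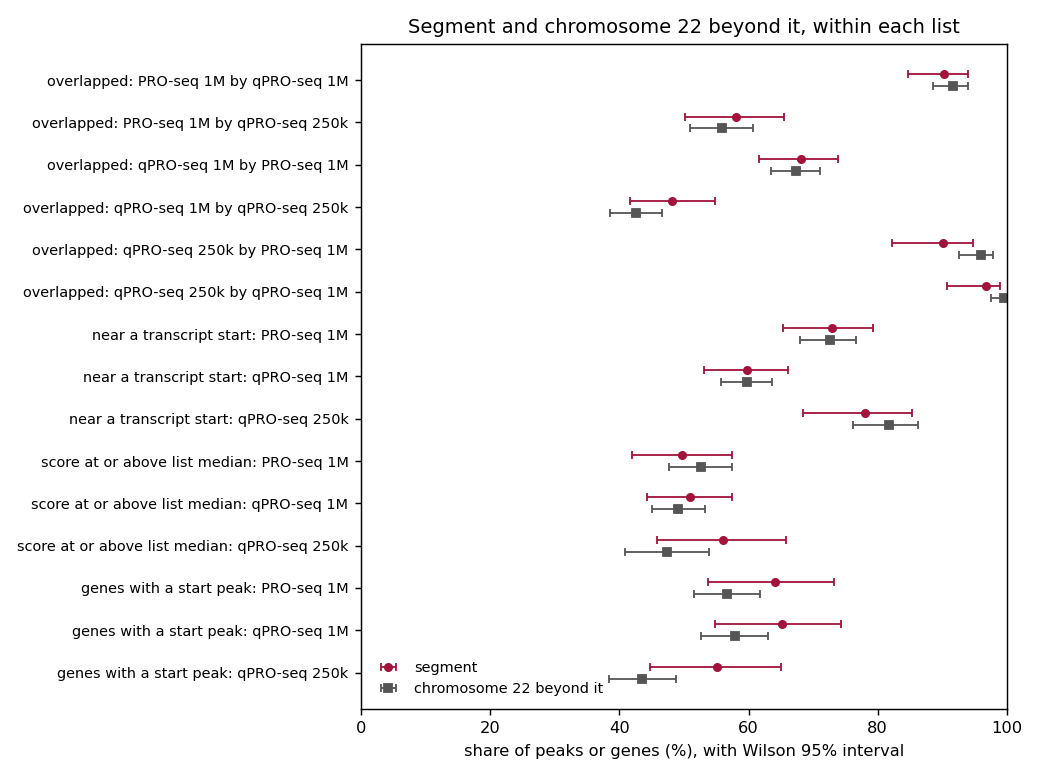
Shares of peaks or genes, in percent, in the segment and on chromosome 22 beyond it, with 95% Wilson intervals of counting error as bars. Intervals of the segment and of the rest overlap in every share, and the widest gap is 11.5 percentage points, for genes with a start peak in qPRO-seq 250k.

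Joining overlapping peaks of the 3 lists gave 186 regions in the segment. All 3 lists had a peak in 67 of them (36.0%), against 184 of 515 beyond (35.7%) and 34.5% over all chromosomes. Regions of qPRO-seq 1M alone numbered 61, those of both 1M lists 37, those of PRO-seq 1M alone 14, those of both qPRO-seq lists 4 and those of qPRO-seq 250k alone 3. No region had a peak of PRO-seq 1M with one of qPRO-seq 250k and none of qPRO-seq 1M (0.379% over all chromosomes). Of the 67 regions in all lists, 55 lay at a transcript start and 12 did not.

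Of the segment's peaks, 72.9% lay near a transcript start in PRO-seq 1M (72.5% beyond, 68.1% over all chromosomes). For qPRO-seq 1M this share was 59.7% (59.8% and 54.2%), and for qPRO-seq 250k it was 78.0% (81.7% and 73.5%). Seen from the genes, 57 of 89 (64.0%) had a start peak in PRO-seq 1M, 58 (65.2%) in qPRO-seq 1M and 49 (55.1%) in qPRO-seq 250k. Beyond the segment the shares of 349 genes were 56.7%, 57.9% and 43.6%, and over all chromosomes they were 52.9%, 54.5% and 44.0%. The differences on chromosome 22 were 7.31 points (-4.23 to 17.9), 7.29 points (-4.23 to 17.8) and 11.5 points (-0.0816 to 22.7), and each interval included 0. Against chromosomes 1 to 21 and X they were 11.3 points (0.897 to 20.5), 10.8 points (0.429 to 19.9) and 11.1 points (0.763 to 21.1), and no interval included 0. Without the light chain locus, the difference on chromosome 22 in qPRO-seq 250k was 14.3 points (2.33 to 25.5). Without the middle of the segment, which left 26 genes, the 3 differences on chromosome 22 were -10.6, -7.88 and -5.09 points, and each interval included 0. Start peaks in all 3 lists were found for 48 genes (53.9%), against 42.4% beyond and 43.1% over all chromosomes, a difference of 11.5 points (-0.0333 to 22.7). A further 7 genes had one in 2 lists, 6 in 1 list and 28 in none. Divided by the number of genes with a start peak, the segment held 2.72, 3.72 and 1.86 peaks, against 2.01, 2.84 and 1.47 beyond.

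**Figure D4:**
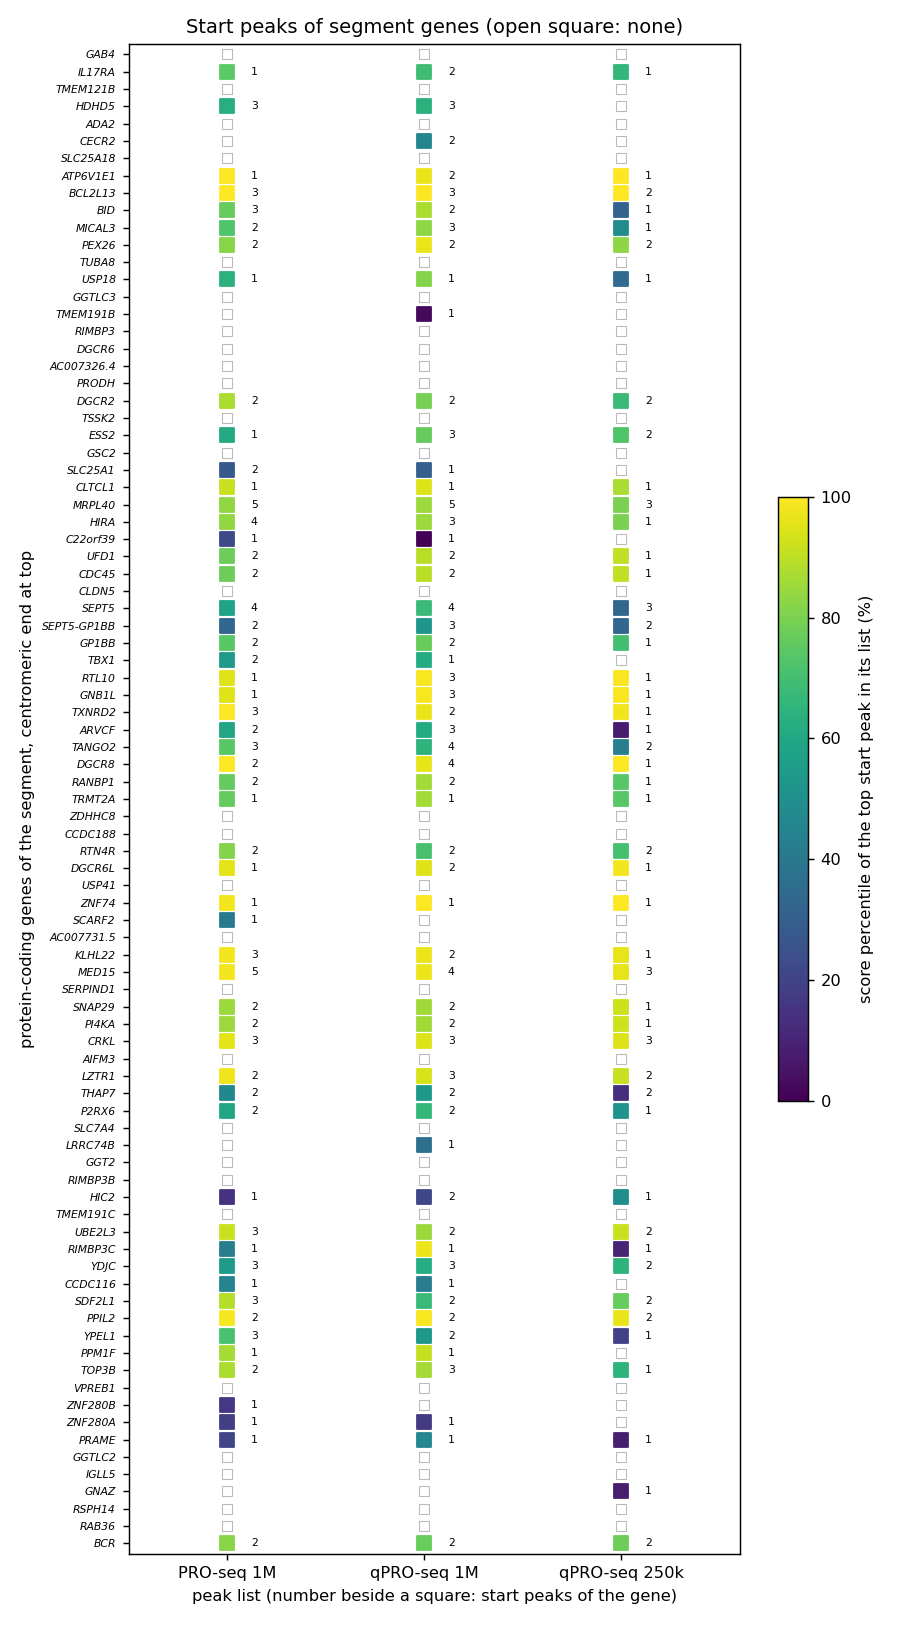
Start peaks of 87 protein-coding genes of the segment (vertical axis, centromeric end at the top) in each list (horizontal axis); colour gives the score percentile of the gene's top start peak, the number beside a square counts its start peaks, and an open square means none. Filled squares in all 3 columns mark 46 of the genes shown, and 28 genes have open squares in all 3.

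At the fusion point, BCR had start peaks in every list. PRO-seq 1M had peaks at chr22:23180211-23180630 (score 0.941, percentile 82.2 of its list) and chr22:23180651-23180990 (0.802). qPRO-seq 1M had peaks at chr22:23180051-23180610 (0.771) and chr22:23180631-23181020 (0.801, percentile 77.2), and qPRO-seq 250k at chr22:23180131-23180590 (0.658) and chr22:23180611-23181090 (0.764, percentile 77.4). The start of BCR was thus above the median of each list, in 2 neighbouring peaks each time. Only qPRO-seq 1M had a further peak inside BCR, at chr22:23250141-23250520 in an intron, with a score of 0.590.

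Of the 12 genes at the fusion point and its neighbours, BCR, TOP3B and PRAME had start peaks in all lists. Among all protein-coding genes 43.1% did, and among those of the segment 53.9%. TOP3B, a topoisomerase, scored 1.01, 0.919 and 0.658. PRAME, a tumour antigen otherwise largely restricted to testis, had low scores of 0.416, 0.517 and 0.361, at percentiles 20.7, 46.0 and 8.80. PPM1F, a protein phosphatase, had one in both 1M lists (0.991 and 0.995), as did ZNF280A (0.406 and 0.363). ZNF280B had one in PRO-seq 1M alone and GNAZ, a G protein subunit, in qPRO-seq 250k alone (0.359). VPREB1 and IGLL5, which belong to the B cell light chain system, GGTLC2, RAB36 and RSPH14 had none. Reads of ZNF280A and ZNF280B, which are similar in sequence, could be split between them.

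The peaks nearest the limit were as follows. Before it, besides the start and intron of BCR, PRO-seq 1M had an intergenic peak at chr22:23016371-23016910 (0.390), and qPRO-seq 250k had the GNAZ start at chr22:23070001-23070310. After it, the first peak of each list was intergenic and shared, at chr22:23521651-23522130 (0.911) in PRO-seq 1M, chr22:23521771-23522240 (0.706) in qPRO-seq 1M and chr22:23521811-23522120 (0.372) in qPRO-seq 250k. The next were chr22:23533881-23534170 (0.368) and the GUSBP11 start at chr22:23717141-23717630 (0.758) in PRO-seq 1M, and chr22:23539271-23539510 (0.272) and chr22:23539641-23539900 (0.329) at PCAT14 in qPRO-seq 1M. In qPRO-seq 250k they were the GUSBP11 start at chr22:23717231-23717510 (0.512) and the ZNF70 start at chr22:23750861-23751310 (0.729).

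Of 14 genes of the centromeric end, 7 had start peaks in all lists, 1 in 2 lists, 1 in 1 list and 5 in none. Over all chromosomes, 43.1% of protein-coding genes had them in all lists. ATP6V1E1, a subunit of the vacuolar proton pump, and BCL2L13, a mitochondrial protein of the BCL2 family, start 37 bp apart in opposite directions. Their shared peak scored 1.23, at percentile 99.4, in PRO-seq 1M, and 1.17, at percentile 99.7, in qPRO-seq 250k. BCL2L13 had a further start peak downstream, at chr22:17638101-17639150 in qPRO-seq 1M, whose score of 1.30 was the highest of the segment in any list (percentile 99.8). The same start had peaks at chr22:17638151-17639140 (1.21) in PRO-seq 1M and chr22:17638241-17639040 (1.16) in qPRO-seq 250k. BID, which links death receptors to mitochondrial apoptosis, scored 0.881, 0.933 and 0.464, and IL17RA, the interleukin-17 receptor, 0.856, 0.716 and 0.666. PEX26, which serves protein import into peroxisomes, scored 0.938, 1.10 and 0.814. HDHD5 had start peaks in both 1M lists and CECR2, a chromatin protein, in qPRO-seq 1M alone. GAB4, TMEM121B, ADA2, SLC25A18 and TUBA8 had none, and reads of USP18, which scored 0.746, 0.855 and 0.476, may be shared with its near copy USP41.

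The interval lost in the typical 22q11.2 deletion held 28 listed genes. Of these, 20 had start peaks in all lists, 2 in 2 lists and 6 in none. The share with start peaks in all lists was 53.9% over the segment's genes and 43.1% over all chromosomes. DGCR8, the RNA-binding partner of DROSHA in microRNA processing, scored 1.23, 1.10 and 1.12, at percentiles 99.3, 96.4 and 99.3. RTL10 and GNB1L shared a start peak that scored 1.11, 1.20 and 1.11. HIRA, a chaperone of histone H3.3, and MRPL40, a mitochondrial ribosomal protein, shared a peak that scored 0.958, 0.901 and 0.784. UFD1 and CDC45, a replication helicase component, shared one that scored 0.889, 0.971 and 0.901.

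TBX1, the T-box factor whose loss is linked to the heart defects of the syndrome, had a start peak in both 1M lists (0.648 and 0.633) and none in qPRO-seq 250k. SLC25A1, the mitochondrial citrate carrier, had start peaks in both 1M lists, with top scores of 0.453 and 0.423, but at different places. In PRO-seq 1M they lay at chr22:19178611-19178970 and chr22:19178991-19179180, and in qPRO-seq 1M at chr22:19179241-19179730. No other list overlapped any of these peaks. GP1BB, a platelet adhesion receptor subunit, had a start peak in every list (0.851, 0.798 and 0.698). DGCR6, PRODH, TSSK2, GSC2, CLDN5 and ZDHHC8 had none, and CLDN5 encodes a tight junction protein of endothelium. DGCR6L, a near copy of DGCR6, scored 1.12, 1.07 and 1.07, and reads of the copies cannot be told apart with certainty.

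Between the deletion interval and the light chain locus, 16 of 21 genes had start peaks in all lists (53.9% over the segment, 43.1% over all chromosomes). Of the others, 1 had them in 2 lists, 1 in 1 list and 3 in none. CRKL, an adaptor protein that BCR-ABL1 phosphorylates, scored 1.12, 1.06 and 0.974 and had 3 start peaks in each list. ZNF74 scored 1.18, 1.21 and 1.13, and PPIL2, at chr22:21666131-21666750 in PRO-seq 1M, scored 1.20, 1.20 and 1.02. MED15, a Mediator subunit, and KLHL22, a ubiquitin ligase adaptor, start 30 bp apart and shared a peak of 1.18, 1.12 and 1.01. UBE2L3, a ubiquitin-conjugating enzyme, scored 1.06, 0.897 and 0.928. CCDC116 had a start peak in both 1M lists and SCARF2 in PRO-seq 1M alone. SERPIND1, a liver inhibitor of thrombin, AIFM3 and SLC7A4 had none.

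Head-to-head gene pairs, with opposite starts at most 1000 bp apart, made up 14 of the 89 genes (15.7%), against 10.3% beyond, a difference of 5.42 points (-1.71 to 14.8). The segment held 7 such pairs, and both genes had start peaks in all lists in 6 of them, against 13 of 18 pairs beyond. The 6 pairs of the segment include ATP6V1E1 and BCL2L13, UFD1 and CDC45, ARVCF and TANGO2, KLHL22 and MED15, and SNAP29 and PI4KA. RSPH14 and RAB36, which start 305 bp apart, had none. A peak between such starts counts for both genes.

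Of the 12 regions away from annotated starts that every list held, the one in an intron of SNAP29 scored highest in each of the lists. It lay at chr22:20867321-20868070 in qPRO-seq 1M, where its score of 1.22 was the second highest of the segment (percentile 99.3). It scored 1.07 in PRO-seq 1M and 0.926 in qPRO-seq 250k. An intergenic region at chr22:19691571-19692410 scored 0.832, 1.08 and 0.6995, and another at chr22:17171091-17172150 reached 0.982, 0.817 and 0.623. Intronic regions of BCL2L13, USP18, GNB1L and MED15 were also in every list.

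The immunoglobulin lambda locus, chr22:22026076-22923034, held 6, 9 and 2 peaks over 897 kb. Of its 87 annotated immunoglobulin segments, of which 39 are pseudogenes, 1 had a start peak, IGLV11-55 in qPRO-seq 1M at chr22:22201051-22201410 (0.524). An intergenic region of the locus, chr22:22297661-22298410, was in every list, with scores of 0.854, 0.861 and 0.754, above the median of each. The other place in the locus with a peak in every list was the PRAME start. The 3 longest stretches of the segment without a peak in any list were chr22:18611121-19109460 (498 kb), chr22:18156581-18521070 (364 kb) and chr22:21103111-21384170 (281 kb). They hold the starts of RIMBP3, DGCR6, AC007326.4 and PRODH in the first, GGTLC3 in the second, and GGT2 and RIMBP3B in the third. RIMBP3, RIMBP3B and RIMBP3C, TMEM191B and TMEM191C, and GGT2, GGTLC2 and GGTLC3 have near-identical copies in the segment, so a missing peak there is uncertain. Among these genes, RIMBP3C had a start peak in every list (0.555, 1.11 and 0.366) and TMEM191B in qPRO-seq 1M alone (0.294). RIMBP3 and RIMBP3B had no start peak but an exonic region in both 1M lists, at chr22:18610761-18611120 and chr22:21384171-21384590. RIMBP3C has 2 annotated starts, and RIMBP3 and RIMBP3B have 1 each, so these copies were not counted alike.

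Peaks that no other list overlapped were 14 of 155 in PRO-seq 1M (9.03%), 61 of 216 in qPRO-seq 1M (28.2%) and 3 of 91 in qPRO-seq 250k (3.30%). Beyond the segment they were 32 of 397 (8.06%), 175 of 574 (30.5%) and 0 of 224, which allows a share of up to 1.34% (3 peaks of the total). All 14, 51 of the 61 and all 3 scored below the median of their list, as did 31 of the 32 and 147 of the 175 beyond. Over all chromosomes, regions of PRO-seq 1M, qPRO-seq 1M or qPRO-seq 250k alone made up 6.14%, 37.0% and 1.04% of joined regions. In the segment these shares were 7.53%, 32.8% and 1.61%. The top-scored ones of PRO-seq 1M were the SCARF2 start at chr22:20429221-20429510 (0.543), an intergenic peak at chr22:18521071-18521330 (0.518) and one at the small RNA genes RF00492 and RN7SKP221, chr22:21544811-21545260 (0.504). Those of qPRO-seq 1M include a peak in a CLTCL1 intron at chr22:19259531-19260000 (0.763) and the AC007663.1 start at chr22:20299491-20299860 (0.712). The 3 of qPRO-seq 250k were at LINC00896, chr22:20208161-20208530, at the GNAZ start and in a TOP3B intron, chr22:21981291-21981620.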

How the data were processed

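Libraries of untreated K562, 6 in all, were measured by run-on sequencing, 2 in each of 3 groups, and 1 dREG peak list stands for both libraries of a group, per the labels. The submitters' processing notes name fastp 0.20.0, Bowtie2 2.3.5.1, UMI-tools and deepTools 3.1.3, and the builds hg38 and GRCh38. The dREG version and thresholds, the pooling of replicates and the depth are not given in the sources used here. The score of each peak was deposited by the authors and has no fixed unit. The p-value of each peak was deposited too, reached at most 0.05 and was used as a filter in an alternative only. The other columns, deposited without a header, hold start, end and centre positions; starts are printed counted from 1.

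From these lists, peaks were counted on chromosome 22 against GENCODE release 29 genes with Python 3.11.15, NumPy 2.4.6 and SciPy 1.17.1, and plotted with matplotlib 3.10.9. A peak counted as near a start within 500 bp, and lists shared a peak at an overlap of at least 1 bp. Rate ratios have exact 95% intervals, shares Wilson and differences of shares Newcombe intervals; counting was tested on simulated lists. Genes were named from 4 lists along the segment, with the 5 top-scored peaks of each list, the 3 top-scored peaks held by 1 list, the 3 peaks on each side of the limit and the 3 longest stretches without a peak; some of these are not reported here. The members and lists were chosen with earlier results of these data known. Sequence features were planned for windows about peak centres; RefSeq promoters (GRCh38.p14, 250 bases upstream) were used in their place, and 62 of the 89 genes have one there. Alternatives covered the segment's end, the denominator, merging, overlap, list length, score, p-value and start window.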

Additional observations from a re-analysis of the deposited data

Results flagged for a closer look

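Peaks of chromosome 22 centred below 17000000 entered no comparison: PRO-seq 1M had 9, qPRO-seq 1M had 26 and qPRO-seq 250k had 4. They include a start peak of the noncoding gene TPTEP1 in each list, at chr22:16601011-16601630 (score 0.957) in PRO-seq 1M, and an intronic peak of XKR3 at chr22:16819081-16819460 in qPRO-seq 1M. XKR3 and CCT8L2, which were listed for the centromeric end, start below 17000000 and had no start peak. Near-identical copies are common in this stretch, and their part in these peaks was not tested.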

How the results depend on the processing

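Of 171 alternatives to the values for density, score, list sharing and gene starts, 153 gave a value within the 95% interval of the reported one (21 with the other sign, where that interval included no difference), 14 lay outside it and 4 reversed. By its own interval, 8 left no difference and 12 took it in. Those that left it are scores in the top 10% in every list but qPRO-seq 1M, qPRO-seq 250k scores at a p-value of at most 0.01, gene starts against other chromosomes in all lists, qPRO-seq 250k gene starts without the light chain locus, and, without the middle, the overlap of qPRO-seq 250k by qPRO-seq 1M (-5.11 points). The density ratio reversed per gene of any type, to 0.883, 0.851 and 0.918 (PRO-seq 1M, qPRO-seq 1M, qPRO-seq 250k), and its interval took in 1 when peaks within 500 bp were merged in both 1M lists (1.24 and 1.20). Without 18.8 to 22.4 Mb, an alternative added after seeing the data, ratios were 1.12, 1.08 and 1.08, differences in gene starts -10.6, -7.88 and -5.09 points, and the overlap of qPRO-seq 1M by PRO-seq 1M 8.67 points. The overlap of qPRO-seq 250k by PRO-seq 1M reversed to 3.57 points at 50% overlap, was -0.0847 for start-near peaks and -13.2 points with lists of equal size. That by qPRO-seq 1M was 2.13 at 50% overlap and 0.206 with centres within 100 bp. With lists of equal size, PRO-seq 1M by qPRO-seq 1M was 5.15 and qPRO-seq 1M by qPRO-seq 250k -2.32 points. The cause was not tested. The planned end of the segment lies past the annotated BCR start, at 23179704, so an end before it was added; neither moved an interval onto or off no difference. No paired analysis was possible because 1 list stands for both replicates of a group; for the same reason no replicate could be left out. Depth is unknown, so list length and depth cannot be told apart.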
